A study of Mus musculus with 6 samples.

Results

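The genes described here are those of cholesterol synthesis and of its regulator, the sterol regulatory element-binding protein (SREBP), together with the fatty acid genes that SREBP proteins also control. A list of 34 names was looked up among the gene names of the array's transcript spots. Of these names 32 were carried by a probe, 32 of 37074 gene names in all, and they had 71 of the 56605 distinct probes. The name Acat2 was carried by no spot, and Sc4mol is an older name of Msmo1, which was measured. All 32 genes passed the filter on dim probes, and each was well above background on all 6 arrays.

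RNA came from osteoclasts, the cells that dissolve bone, which had been grown from mouse bone marrow cells and treated for 5 days with RANKL, the cytokine that drives their formation. The control group was 3 Ano1fl/fl mice, whose gene for the chloride channel anoctamin 1 is flanked by loxP sites and left in place. The other group was 3 Ctsk-Cre;Ano1fl/fl littermates with the same floxed alleles, in which Cre under the cathepsin K promoter is meant to cut the gene out as cells become osteoclasts. For such cultures in general the study's methods give marrow of mice aged 6 to 8 weeks, M-CSF at 10 ng/ml for 1 day and then at 30 ng/ml, together with RANKL at 50 ng/ml. By other assays the study reports lower Ano1 transcript and protein in such Ctsk-Cre;Ano1fl/fl osteoclasts, and those values are not used here. Each mouse gave 1 array, so the spread within a group is that between 3 mice and their cultures.

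Each value below is a log2 signal, quantile normalized across the 6 arrays, and each difference is the mean of the Ctsk-Cre;Ano1fl/fl arrays minus that of the Ano1fl/fl arrays. A gene was called where limma's adjusted p (Benjamini-Hochberg over 20645 genes) was under 0.05. The values of different probes were not set against each other, since a probe's brightness depends on its sequence.

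The arrays of a group resembled each other, with correlations of 0.995 to 0.997 within groups and 0.947 to 0.951 between them. Of all genes tested 52.4% were called, 23.4% higher and 29% lower. The single Ano1 probe was below background on all 6 arrays and so could not check the labels. Groups are therefore called by their labels. Osteoclast markers were present in both groups, and 11 of the 12 listed had a higher signal in the group labelled Ctsk-Cre;Ano1fl/fl, with a summed signal of 551488 to 622863 against 177773 to 191797. The other marker, Tnfrsf11a, which encodes the RANKL receptor RANK, was lower (-0.40, limma adjusted p = 0.0332). For such cultures the study reports lower Nfatc1, Acp5, Ctsk and Mmp9 by PCR, and the other listed markers were not part of that result. On the arrays the brightest probes of these genes went the opposite way. Acp5, Ctsk and Mmp9 also rose as the mean of all their probes (0.84, 3.17 and 4.12). Nfatc1 gave 0.53 on its brightest probe and -0.0026 as the mean of its probes, so its direction depended on the probe choice. Every direction below rests on the labels. Of the 11 tested markers on the list for stromal cells and osteoblasts, 8 were higher and Lepr (-0.69) and Runx2 (-0.46) were lower, Sp7 (-0.08) did not pass and Bglap was not tested. The summed signal of this list was 88969 to 131328 against 23144 to 25435, and collagen genes were among the rises. All 10 cell cycle markers were lower, with a summed signal of 62679 to 82597 against 128766 to 144205. Of 10 neutrophil markers 7 were lower and 1 higher (sums of 212422 to 264896 against 320315 to 337289), and of 9 tested monocyte and macrophage markers 4 were lower, all by more than 2-fold, and 1 higher (sums of 429248 to 471159 against 497416 to 514799). The part of these shifts in the results on lipid genes was not tested. In RNA from a whole culture, fewer cells of a type and less RNA per cell cannot be told apart.

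Cells make cholesterol from acetyl-CoA through the mevalonate pathway, whose early products also feed the isoprenoid chains that anchor small GTPases to membranes. When membranes of the endoplasmic reticulum run low in cholesterol, the escort protein SCAP carries SREBP to the Golgi, where it is cleaved and released to switch on the genes of sterol and fatty acid synthesis. INSIG proteins hold SCAP back when sterols are plentiful. In osteoclasts the pathway is known as the target of nitrogen-containing bisphosphonates, bone drugs that block farnesyl pyrophosphate synthase, and cholesterol supply is known to affect osteoclast formation and survival.

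On the arrays labelled Ctsk-Cre;Ano1fl/fl, 4 of the 32 genes were higher (12.5%) and 11 were lower (34.4%), and 17 did not pass the test. Over all genes tested, 23.4% were called higher and 29% lower. Under this normalization the members' share of lower genes was near the background, and their share of higher genes was below it. Scaling each array to its 75th percentile instead gave 3 higher and 16 lower members (50% lower), where 20% of all genes were higher and 33.2% lower. Leaving out 1 array at a time gave 5 to 16 lower members, where 23.6% to 25.4% of all genes were lower, so the place of the lower share beside the background changed with the setting. The median difference of the members was -0.20, beside -0.06 over all genes tested, and 23 of the 32 had a negative difference (71.9%, beside 55.1% of all genes). The differences ran from -2.33 for Elovl6 to 3.09 for Scd1, and these were the only members called at more than 2-fold. The background for such calls was 9.88% higher and 7.19% lower. The other 30 members (93.8%) lay within 1 log2 unit of no difference, as did 82.7% of all genes. Groups did not overlap in 5 members that were higher and 15 that were lower, where the background was 28.6% and 35.4%.

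**Figure D1:**
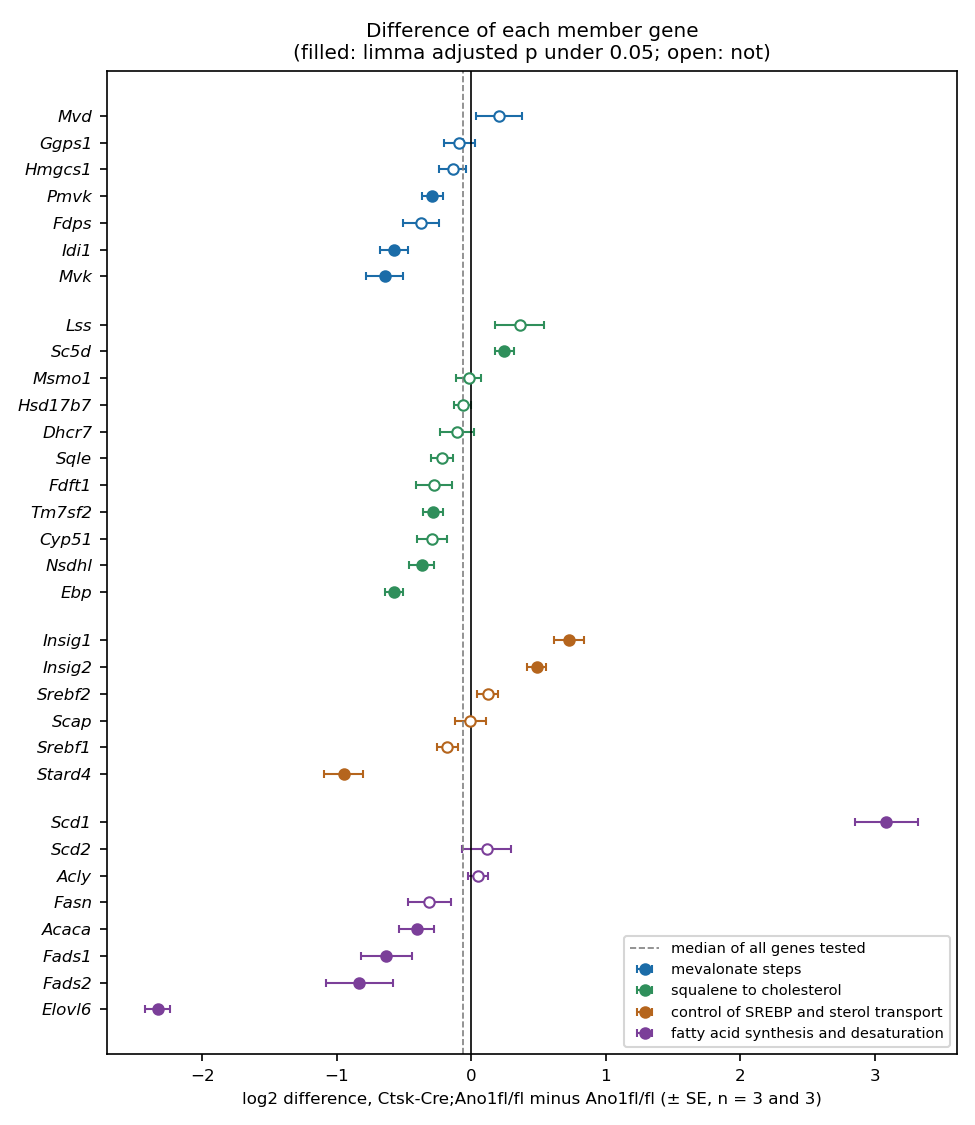
Log2 difference of each of the 32 member genes (Ctsk-Cre;Ano1fl/fl minus Ano1fl/fl, bars are the standard error from limma, 3 arrays a group), ordered by role, with filled points for an adjusted p under 0.05. Scd1 at 3.09 and Elovl6 at -2.33 stand at opposite ends, and the dashed line marks the median of all genes tested, -0.06.

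**Figure D2:**
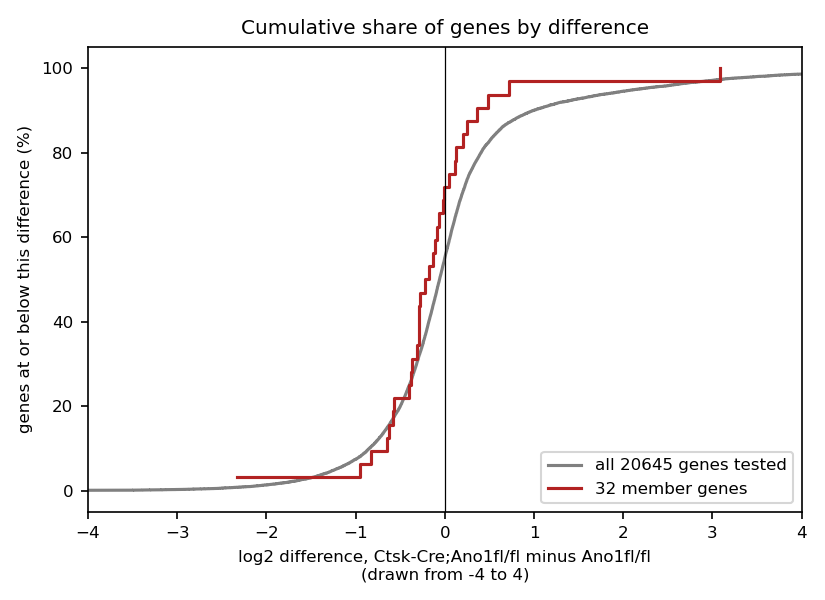
Percent of genes with a log2 difference at or below the value on the horizontal axis, for the 32 member genes and for all 20645 genes tested (axis drawn from -4 to 4). The members' curve rises more steeply around 0, since 93.8% of members and 82.7% of all genes lay within 1 log2 unit of no difference.

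Because genes of this pathway share regulators, their promoters were searched for 4 motifs, on both strands of the RefSeq windows from 250 bases before to 50 bases after each start site (GRCm38.p6). These were TCACNCCAC, written here for the sterol regulatory element at which SREBP binds, the E-box CACGTG, the NF-Y box CCAAT and the GC box GGGCGG of Sp1. Overlapping matches of different motifs each counted, and 25 of the 32 members had 33 windows in the table. CCAAT was in 22 of the 33 windows (66.7%), beside 37.4% of all 32851 windows. GGGCGG was in 24 (72.7%), beside 35.7% of all windows, and CACGTG in 6 (18.2%), beside 7.15%. TCACNCCAC was in 1 window (3.03%, beside 1.24% of all), that of Hmgcs1. CCAAT was held by 9 of the 12 members with a window that were called and by 12 of the 13 that were not. A match is a description of letters, and binding was not measured.

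The Hmgcs1 match is shown because it is the only one to the sterol element, and the others are the CCAAT nearest upstream of the start in each member with such a match whose call held under all 15 alternatives of processing, test and array, fold thresholds apart. Hmgcs1 is read on the plus strand at chr13:119690204-119690232, with the match beginning 137 bases before the start. Mvk is read on the minus strand at chr5:114444243-114444271 and Idi1 on the minus strand at chr13:8885580-8885608, each with its match 14 bases before the start. Ebp is read on the plus strand at chrX:8193551-8193579, 55 bases before the start. Insig1 is read on the minus strand at chr5:28071184-28071212, 216 bases before the start, and Insig2 on the minus strand at chr1:121332602-121332630, 29 bases before it. Capitals mark the motif.
Hmgcs1: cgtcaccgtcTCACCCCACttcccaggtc
Mvk: gtcttcctgaggCCAATcagagagctgga
Idi1: gtcggtcgccagCCAATggcaccttggac
Ebp: gaatctgacgaaCCAATcagtacagggat
Insig1: aggccgccggagCCAATgggaggagggcg
Insig2: tcaccttccacaCCAATctatattaaaat

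The mevalonate steps had 7 measured genes, of which 3 were lower, 4 did not pass and none was higher (median difference -0.29). Over all genes tested, 29% were lower and 23.4% higher. Mvk, Idi1 and Pmvk fell, and these encode enzymes in the middle of the pathway. Mvk encodes mevalonate kinase, which adds a phosphate to mevalonate, and its probe lies at chr5:114910540-114910599 of mm9, the build of the array files. Mvk read 11.43, 11.84 and 11.90 in the Ano1fl/fl group, and 11.14, 11.00 and 11.10 in the Ctsk-Cre;Ano1fl/fl group. All 3 of the latter lay under the lowest control. The means were 11.72 ± 0.25 and 11.08 ± 0.07 (SD, n = 3 each), a difference of -0.64 (limma SE 0.137, adjusted p = 0.0091), and the other probe of Mvk was lower as well, at -0.38 (adjusted p = 0.0429).

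Idi1 encodes the isomerase that turns isopentenyl into dimethylallyl pyrophosphate, the primer for longer isoprenoids (probe at chr13:8891524-8891583, mm9). It read 11.80, 12.00 and 11.99 on the control arrays and 11.52, 11.25 and 11.29 on the others. The groups did not overlap, and Idi1 fell by 0.57 on the log2 scale (limma SE 0.104, adjusted p = 0.0049). Pmvk, which adds the next phosphate after mevalonate kinase, went from 12.97, 12.84 and 12.78 to 12.62, 12.50 and 12.60, a fall of 0.29 (adjusted p = 0.025 in limma), and its other probe fell by 0.32 (adjusted p = 0.0371). The Pmvk call held in 2 of the 6 fits that leave out an array.

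Fdps encodes farnesyl pyrophosphate synthase, the enzyme that nitrogen-containing bisphosphonates block. Its control arrays read 13.25, 13.48 and 13.30, and the others read 13.21, 12.75 and 12.94. The groups did not overlap, yet the difference of -0.38 (limma SE 0.134) missed the threshold with an adjusted p of 0.0562. Fdps passed in 6 of the 15 alternatives of processing, test and array and did not in the other 9. Ggps1, which makes the geranylgeranyl chain used on small GTPases, had 6 probes, and its brightest gave -0.09 (adjusted p = 0.539 in limma). The other 5 ran from -0.47 to 0.06, and only the probe at -0.47 passed (adjusted p = 0.0119).

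Hmgcs1, the synthase that makes HMG-CoA and the member with the sterol element shown above, had a difference of -0.14 (limma SE 0.0997, adjusted p = 0.288). Mvd, which removes the carboxyl group to give isopentenyl pyrophosphate, differed by 0.20 (adjusted p = 0.353 in limma). On the Ctsk-Cre;Ano1fl/fl arrays Mvd read 11.18, 10.69 and 10.51, whereas the 3 controls all read 10.59, so 1 array set most of that difference.

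From squalene to cholesterol 11 genes were measured. Of these 1 was higher, 3 were lower (all genes 23.4% and 29%) and 7 did not pass (median difference -0.22). The 3 that fell were Ebp, Nsdhl and Tm7sf2, which act on the sterol ring system after lanosterol.

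Ebp encodes the isomerase that moves a ring double bond (probe at chrX:7762463-7762522, mm9). It read 14.21, 14.13 and 14.10 on the control arrays and 13.61, 13.53 and 13.56 on the others. The arrays within each group lay close together and the groups were well apart. The means were 14.15 ± 0.06 and 13.57 ± 0.04 (SD, n = 3 each), a fall of 0.58 (limma SE 0.0674, adjusted p = 0.000865), or 1.49-fold. A dimmer Ebp probe gave -0.32 and did not pass (adjusted p = 0.12).

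Nsdhl, a dehydrogenase that helps to strip methyl groups from the sterol ring, fell by 0.37 (limma SE 0.0929, adjusted p = 0.0173), from 9.37, 9.49 and 9.43 to 9.23, 8.99 and 8.97. Its dimmer probe gave -1.29 (adjusted p = 0.011) but was well above background on only 2 of the 3 Ctsk-Cre;Ano1fl/fl arrays, so it entered the test through the controls and adds no support. Tm7sf2, a sterol reductase, fell by 0.29 (limma SE 0.0749, adjusted p = 0.0195), from 10.30, 10.39 and 10.35 to 10.16, 9.98 and 10.04. Its dimmer probe gave -0.27 and did not pass (limma adjusted p = 0.109 over all probes), with groups that overlapped. The groups did not overlap in the probes that stand for Nsdhl and Tm7sf2, but the call held in 3 of the 6 fits without an array for Nsdhl and in 2 of the 6 for Tm7sf2.

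Sc5d, a desaturase near the end of the pathway, was the called rise of this stretch, and its probes gave opposite calls. The brighter probe read 11.47, 11.48 and 11.48 on the control arrays and 11.82, 11.67 and 11.68 on the others, a difference of 0.24 (limma SE 0.0709, adjusted p = 0.0282). The dimmer probe gave -0.40 (adjusted p = 0.00905), and the mean of both gave -0.08. The call of the brighter probe held in 1 of the 6 fits without an array. A direction for Sc5d therefore rests on which probe is read.

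Lss encodes lanosterol synthase, which closes the sterol rings. Its brightest probe read 9.93, 10.07 and 10.01 on the control arrays and 10.78, 10.17 and 10.14 on the others. The groups did not overlap, but the spread of the latter was wide and the difference of 0.36 did not pass (limma SE 0.18, adjusted p = 0.141). All 3 Lss probes had positive differences (0.36, 0.76 and 0.46), of which the last passed (adjusted p = 0.028). The mean of all Lss probes gave 0.52 and passed narrowly (limma adjusted p = 0.0499). When 1 array was left out, the brightest probe ran from 0.15 to 0.47.

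Another 6 enzymes of this stretch did not pass. Sqle, squalene epoxidase, differed by -0.22 (limma SE 0.0814, adjusted p = 0.0615), with all 3 of its Ctsk-Cre;Ano1fl/fl values (11.52, 11.32 and 11.36) under the controls at 11.58 to 11.69. Cyp51, the lanosterol demethylase, differed by -0.29 (adjusted p = 0.0679 in limma) and likewise did not overlap. Fdft1, squalene synthase, differed by -0.28 (adjusted p = 0.128). Dhcr7, which completes cholesterol, and Hsd17b7, a ketosteroid reductase, differed by -0.11 and -0.07. Msmo1, a sterol methyl oxidase, differed by -0.02 on its brightest probe, and its other probes gave 0.18 and -0.72, of which -0.72 passed (adjusted p = 0.00307).

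Among the 6 genes that control SREBP or move sterol, 2 were higher and 1 was lower (all genes 23.4% and 29%). The other 3 did not pass, and the median difference of the 6 was 0.06. The genes that rose were both INSIG genes, the brakes on SREBP transport, and the gene that fell was Stard4, a carrier of cholesterol within the cell.

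Insig1, itself a known SREBP target, read 7.95, 8.05 and 7.74 on the control arrays and 8.63, 8.76 and 8.52 on the others (probe at chr5:28404246-28404305, mm9). All 3 Ctsk-Cre;Ano1fl/fl values were above every control. Insig1 rose from 7.91 ± 0.16 to 8.64 ± 0.12 (SD, n = 3 each), a difference of 0.72 (limma SE 0.11, adjusted p = 0.00247), or 1.65-fold.

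Insig2, the other INSIG gene, read 11.11, 11.00 and 11.03 on the control arrays and 11.58, 11.55 and 11.45 on the others (probe at chr1:123201085-123201144, mm9). The groups did not overlap, and the rise was 0.48 (limma SE 0.0717, adjusted p = 0.00221). All 3 Insig2 probes passed, at 0.48, 0.56 and 0.47.

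Stard4 read 10.10, 10.26 and 10.20 on the control arrays and 9.51, 9.24 and 8.97 on the others. The groups did not overlap. Stard4 fell from 10.19 ± 0.08 to 9.24 ± 0.27 (SD, n = 3 each), or 1.93-fold, with a difference of -0.95 (limma SE 0.145, adjusted p = 0.00249). Its dimmer probe gave -0.40 and did not pass (adjusted p = 0.0891).

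The transcripts of the SREBP proteins and their escort did not pass. Srebf1, whose products act mainly on fatty acid genes, differed by -0.18 (limma SE 0.0784, adjusted p = 0.101), with 13.05, 13.12 and 13.11 on the control arrays and 13.03, 12.83 and 12.88 on the others. Srebf2, whose product acts mainly on cholesterol genes, differed by 0.12 (adjusted p = 0.23 in limma) on its brighter probe and by -0.23 (adjusted p = 0.142) on the dimmer. Scap differed by -0.01 (limma SE 0.114, adjusted p = 0.961). SREBP activity depends on cleavage of the protein, which arrays do not measure.

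The 8 fatty acid genes held both extremes (median difference -0.36). In this set 1 was higher, 4 were lower (all genes 23.4% and 29%) and 3 did not pass. Scd1 and Elovl6 encode neighbouring steps, since ELOVL6 lengthens palmitate to stearate and SCD1 puts a double bond into stearate and palmitate.

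Scd1 read 7.93, 8.30 and 8.24 on the control arrays and 11.43, 10.73 and 11.57 on the others (probe at chr19:44469387-44469446, minus strand, mm9). Every Ctsk-Cre;Ano1fl/fl array was more than 2 log2 units above every control array. Scd1 rose from 8.16 ± 0.20 to 11.24 ± 0.45 (SD, n = 3 each), a difference of 3.09 (limma SE 0.237, adjusted p = 0.000183), or 8.49-fold. A further Scd1 probe stayed too dim to be told from background on each of the 6 arrays.

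Scd2, a related desaturase also encoded on chromosome 19, read 13.13, 13.45 and 13.42 on the control arrays and 13.76, 13.11 and 13.46 on the others. The groups overlapped, and the difference was 0.11 (limma SE 0.182, adjusted p = 0.627).

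Elovl6 read 9.57, 9.74 and 9.84 on the control arrays and 7.41, 7.31 and 7.44 on the others (probe at chr3:129337756-129337815, mm9). The groups lay more than 2 log2 units apart. Elovl6 fell from 9.72 ± 0.13 to 7.39 ± 0.07 (SD, n = 3 each), a difference of -2.33 (limma SE 0.0916, adjusted p = 2.0e-05), or 5.03-fold. It had no other probe.

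Fads1 and Fads2 encode the desaturases that make polyunsaturated fatty acids, and both were lower on the 6 arrays together. Each call was kept in only 1 of the 6 fits that leave out an array, the fit without Ctsk-Cre;Ano1fl/fl replicate 1. Both calls were lost with the methods' t-test after Benjamini-Hochberg adjustment. Fads2 read 7.61, 7.73 and 7.88 on the control arrays and 7.47, 6.49 and 6.77 on the others, a difference of -0.83 (limma SE 0.251, adjusted p = 0.0323). Of its 5 probes 3 were well above background on all 6 arrays, at -0.83, -1.26 and -0.997. The other 2 entered the test through the control arrays alone, so they add no support. Of these, the probe at -0.56 was above background on 2 of the 3 Ctsk-Cre;Ano1fl/fl arrays, and the dimmest was on none and is given as at least 1.63-fold lower.

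Fads1 read 10.43, 10.24 and 10.33 on the control arrays and 10.13, 9.53 and 9.44 on the others, a difference of -0.63 (limma SE 0.191, adjusted p = 0.0328). Its other probes fell by 1.48 (adjusted p = 4.4e-05) and by 0.78 (adjusted p = 0.00363). In both genes the groups did not overlap, and replicate 1 of the Ctsk-Cre;Ano1fl/fl group lay nearest the controls.

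Acaca, the carboxylase that commits acetyl-CoA to fatty acid synthesis, fell by 0.41 (limma SE 0.132, adjusted p = 0.0412), from 11.80, 11.54 and 11.50 to 11.43, 11.10 and 11.09. This call too was kept in only 1 of the 6 fits without an array and was lost with the methods' t-test after Benjamini-Hochberg adjustment. Its next brightest probe gave -0.36 and did not pass (adjusted p = 0.11), and 4 of its 7 probes were too dim to test. Fasn, the synthase itself, read 13.44, 13.46 and 13.37 on the control arrays and 13.47, 12.87 and 12.99 on the others, a difference of -0.31 that did not pass (limma SE 0.161, adjusted p = 0.149). Acly, which makes acetyl-CoA from citrate, differed by 0.05 (adjusted p = 0.614 in limma) on its brighter probe, and its dimmer probe was lower, at -0.36 (adjusted p = 0.0367).

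Over all probes, 64 of the 71 could be tested, and 7 were higher and 25 lower, among them 4 dim probes of Acaca, Fads2 and Nsdhl that entered through the controls alone. The background over all 31848 probes tested was 21.8% higher and 30.6% lower. Of the 20 members with several tested probes, 14 had the same sign on every one, and 6 had both signs (Acly, Ggps1, Hsd17b7, Msmo1, Sc5d and Srebf2).

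**Figure D3:**
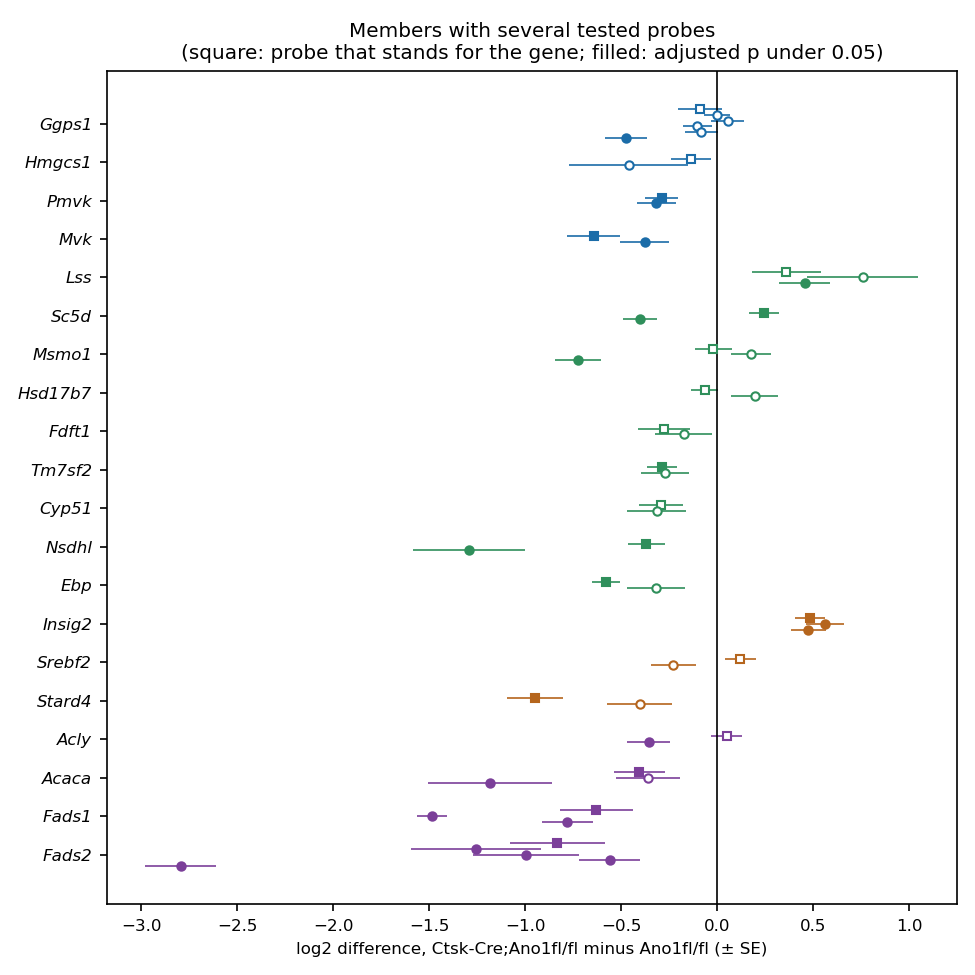
Log2 difference (± SE from limma, 3 arrays a group) of every tested probe of the 20 members that have more than 1, with squares for the probe that stands for the gene and filled points for an adjusted p under 0.05. All 3 Insig2 probes lie to the right of 0, and the Fads2 probes lie to the left, of which the farthest was below background on the Ctsk-Cre;Ano1fl/fl arrays, while the Sc5d probes lie on opposite sides.

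The members also varied between the arrays of a group. Replicate 1 of the Ctsk-Cre;Ano1fl/fl group was the highest of its 3 arrays in 27 of the 32 members (84.4%), beside 34.1% of all genes. Its members had a median of -0.08 against the control mean, where replicates 2 and 3 had -0.28 and -0.22, and over all genes these medians were -0.05, -0.06 and -0.06. This pattern was noticed after the values were seen. The same array had the highest summed signal of stromal and osteoblast markers in its group (131328, beside 103481 and 88969), and its part in the pattern was not tested. Among the controls, replicate 1 was the lowest of its 3 arrays in 21 of the 32 members, beside 33.9% of all genes, and replicate 2 the highest in 18 (56.2%), beside 31.8%.

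Without that Ctsk-Cre;Ano1fl/fl array, 16 of the 32 members were lower and 3 higher, where 25.4% and 20.5% of all genes were called. The array had been picked as the highest of its group in most members, so leaving it out favours lower calls. The calls gained this way are a description and add no support. The members called without this array and not with it were Fasn (-0.49, adjusted p = 0.00827 in limma), Fdft1 (-0.42, adjusted p = 0.0104), Fdps (-0.50, adjusted p = 0.0193), Sqle (-0.28, adjusted p = 0.0368) and Cyp51 (-0.37, adjusted p = 0.0465). Scd1 (2.99), Elovl6 (-2.34), Insig1 (0.73) and Insig2 (0.46) moved little without it.

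**Figure D4:**
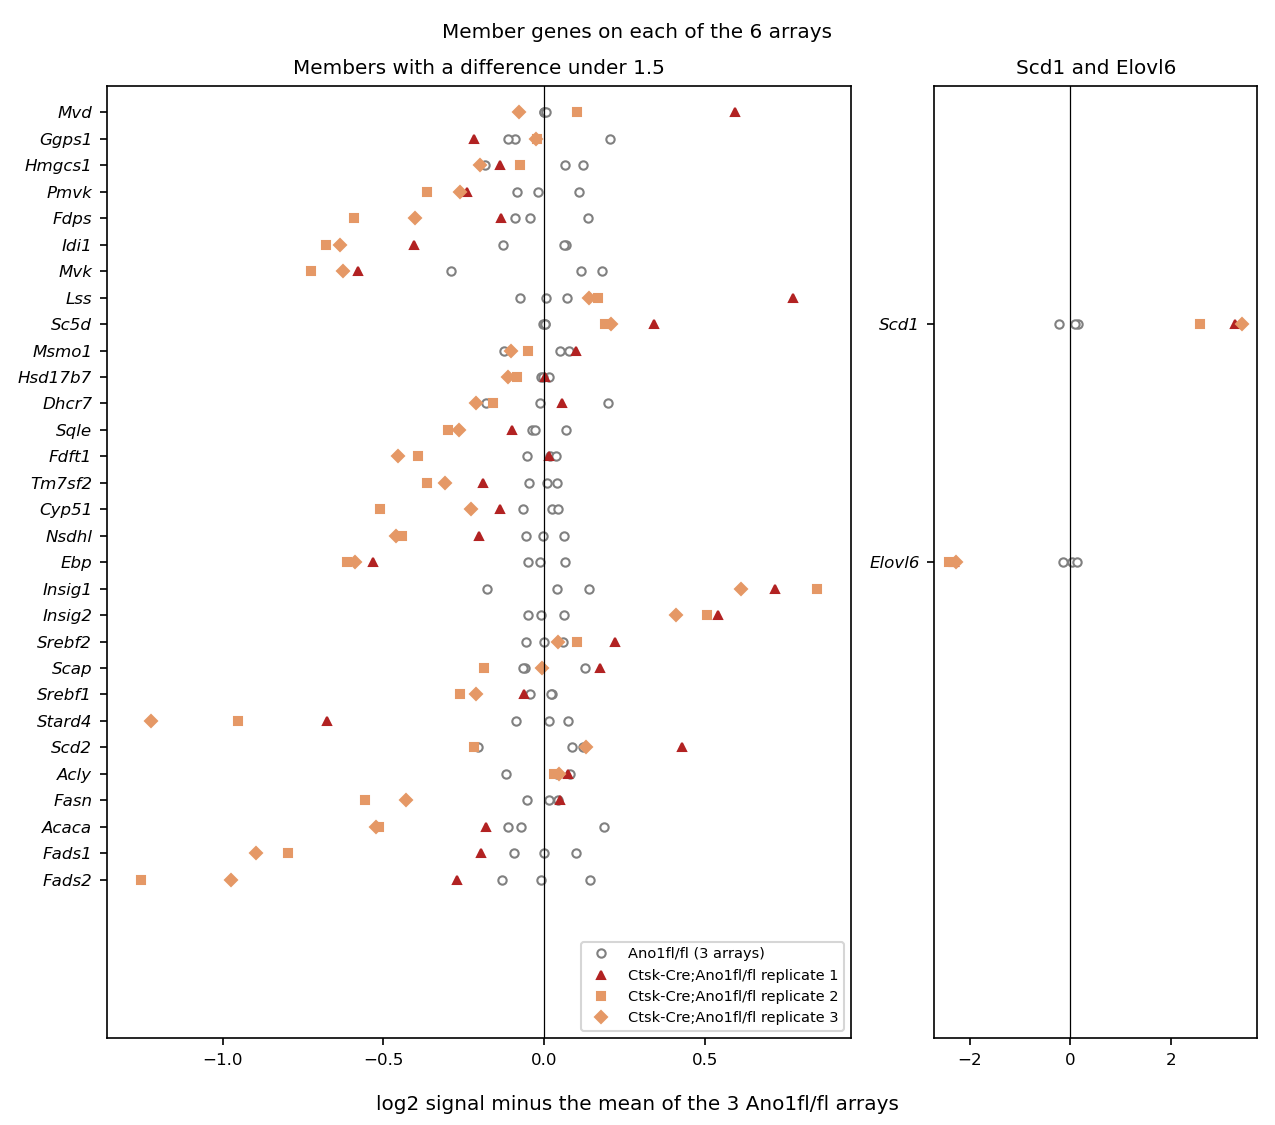
Log2 signal of each member on each array, minus the mean of the 3 Ano1fl/fl arrays (open circles), with Scd1 and Elovl6 on their own axis at the right. The dark triangles, replicate 1 of Ctsk-Cre;Ano1fl/fl, lie to the right of the other arrays of that group in 27 of the 32 members.

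Further genes of the pathway were read from lists of the same kind. Over all genes tested, 9.88% were called higher and 7.19% lower at more than 2-fold. Of 17 tested enzymes and SREBP targets outside the 32, 5 were higher and 4 lower (all genes 23.4% and 29%). Their median difference was -0.02. Lbr, a nuclear membrane protein with the same sterol reductase activity as Tm7sf2, fell by more than 2-fold, with a difference of -1.20 (limma SE 0.168, adjusted p = 0.00176).

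Of 15 tested genes for SREBP cleavage, escort and turnover, 6 were higher and 2 lower (all genes 23.4% and 29%). None was called at more than 2-fold, and the median difference was 0.07. Of 16 genes that use isoprenoids, for prenylation, ubiquinone or dolichol, 4 were higher and 4 lower (all genes 23.4% and 29%). Again none was called at more than 2-fold, and the median difference was -0.16.

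Of 21 genes for cholesterol uptake, efflux and storage and of the sterol receptor LXR, 6 were higher and 5 lower (median difference 0.03). The shares over all genes were 23.4% and 29%. The rises included Ch25h, which makes 25-hydroxycholesterol, an oxysterol that holds SREBP back, with a difference of 3.50 (limma SE 0.189, adjusted p = 5.5e-05). Vldlr, a lipoprotein receptor, differed by 3.42 (limma SE 0.153, adjusted p = 2.8e-05) and Olr1, a scavenger receptor for oxidised lipoprotein, by 1.92 (limma SE 0.17, adjusted p = 0.000309). The fall over 2-fold was that of Cyp27a1, the sterol 27-hydroxylase, at -2.05 (limma SE 0.24, adjusted p = 0.000883). With normexp background correction Cyp27a1 gave -1.05 and Olr1 1.19, and with the series matrix -1.43 and 1.44, so their size depended on the background correction.

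Adipocytes also express Scd1 strongly. Of 10 adipocyte markers, Adipoq, Plin1, Cidec and Cfd were not tested because their probes were too dim, and of the 6 tested, Fabp4 was higher (1.04, adjusted p = 0.000783 in limma) and Pparg was lower (-0.38, adjusted p = 0.0363). Retn, counted as tested only through its control arrays, was below background on every Ctsk-Cre;Ano1fl/fl array, and at least 1.21-fold lower there. The summed signal of the 6 was 104675 to 117718 on the Ctsk-Cre;Ano1fl/fl arrays and 103227 to 117232 on the controls, a sum made mostly of Lpl and Adipor2, which did not pass. The part of such cells in the Scd1 result was not tested.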

How the data were processed

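RNA was labelled with Cy3 and hybridised to 6 Agilent one-colour mouse arrays on 1 slide, read in 1 scan. The authors deposited scanner intensity values for each spot, extracted per the labels with Feature Extraction 10.7.1.1, whose processed signal has background and trends within the array removed. The deposited series matrix holds the median spot intensity (largest difference 0) and served as an alternative. From the 59305 transcript spots per array, of which 33480 to 34951 were well above background and none was saturated, spots marked as outliers (143 to 252) were left out. Log2 values of the processed signal were quantile normalized, as the study's methods state, and averaged per probe, and 14 probes with a missing value were dropped. A gene was represented by its brightest probe and tested if, in at least 1 group, that probe passed the scanner's background test on all 3 arrays. Groups were compared with lmFit and eBayes in limma 3.58.1 (R 4.3.3, with the package data.table, version 1.17.8), with Benjamini-Hochberg adjustment over 20645 genes, or 31848 probes for probe values. An exact permutation test of 3 against 3 arrays cannot give a two-sided p under 0.1 and was not used. Where 1 group was below background, the fold is a bound, taken against the dimmest signal that passed the background test on each of its arrays. The number of arrays limits the precision, and the limma script was tested on simulated data. Promoter windows are from RefSeq on GRCm38.p6, read with Python 3.11.15 and pandas 2.3.3, and 7 members had none. Plots were drawn with matplotlib 3.10.9. The array files supplied the gene names and mm9 positions, and they give no exon for a probe. The members, the gene lists and the markers were chosen with earlier results of these data known, and all members are named, with up to 3 rises and 3 falls over 2-fold from each other list, except 1 gene that is not reported here. Alternatives covered scaling, background correction, source, probe filter, probe choice, test, replicate block, threshold and leaving out each array.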

Additional observations from a re-analysis of the deposited data

How the results depend on the processing

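Each member was recomputed under 15 alternatives of processing, test and array. Of the 15 called members, 8 kept their call in all of them (Scd1, Elovl6, Stard4, Ebp, Mvk, Idi1, Insig1 and Insig2), and 7 lost it in at least 1 (Acaca, Fads1, Fads2, Nsdhl, Pmvk, Tm7sf2 and Sc5d). Of the 17 not called, 7 passed and 7 changed sign in at least 1. The cause was not tested.

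The 11 lower genes became 7 with the replicate block, in which the replicate number entered the fit, and the 4 higher became 3 (all genes 24.6% lower and 20.3% higher). Deviations of same-numbered arrays correlated at 0.00443, -0.0617 and -0.0808, so same-numbered arrays shared no clear pattern. This cannot tell whether same-numbered mice were paired by litter or handling. Leaving out 1 array gave 5 to 16 lower genes (all genes 23.6% to 25.4%), 3 or 4 higher genes (all genes 19.9% to 21%) and 12 to 34 lower probes (all probes 24.8% to 27.4%). The count of lower genes was 5 without Ano1fl/fl replicate 2 or without Ctsk-Cre;Ano1fl/fl replicate 2 or 3, and 7 without Ano1fl/fl replicate 1 or 3. The 25 lower probes became 16 with no filter on dim probes (all probes 16.3%) and 17 with the replicate block (25.6%). At over 1.5-fold 2 genes were higher and 5 lower (all genes 14.7% and 16%), and at over 2-fold 1 and 1 (9.88% and 7.19%), so Ebp, Idi1 and Insig2 lay under 1.5-fold. The methods' t-test called 4 higher and 8 lower after Benjamini-Hochberg adjustment (all genes 21.4% and 25.5%), and 4 and 12 at an unadjusted p under 0.05 (25.2% and 30.7%), where limma gave 4 and 14 (25.9% and 32.9%). Scaling to the 75th percentile gave 3 higher and 16 lower genes (all genes 20% and 33.2%) and moved the median of all genes from -0.06 to -0.13.

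The direction of 8 members turned in some setting. Acly was -0.0508 with 75th percentile scaling and -0.154 as the mean of its probes, and Scap was 0.0189 with normexp and 0.002 from the series matrix. The mean of all probes gave 0.065 for Hsd17b7, -0.0787 for Sc5d and -0.0532 for Srebf2. When 1 array was left out, Acly ran from -0.0095 to 0.0891, Ggps1 from -0.146 to 0.0126, Msmo1 from -0.0828 to 0.0225, Scap from -0.0975 to 0.0818 and Scd2 from -0.0445 to 0.278. Scd2 was negative only without Ctsk-Cre;Ano1fl/fl replicate 1. None of these 8 passed the test in the setting that turned it.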
